A study of Mus musculus with 6 samples.

Results

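The genes described here encode receptors, bridging molecules and complement C1q chains with which macrophages (Mφs) recognise and take up dying cells. They were chosen by name, as Mertk, Axl, Gas6, Pros1, Mfge8, C1qa, C1qb, C1qc, Trem2 and Timd4, so they are 10 of the 41549 genes in the table, and all 10 passed the filter on low counts that left 11933 genes for testing. Engulfment of apoptotic cells, called efferocytosis, starts when phosphatidylserine appears on the surface of a dying cell. Some receptors bind this lipid directly, whereas others reach it through secreted bridging proteins, and C1q coats the dying cell as an opsonin. In tissues the process is regarded as a hallmark of anti-inflammatory Mφs, and the nuclear receptors that sense the lipids of ingested cells are known to control several of these genes.

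Bone marrow cells of wild type C57Bl/6 N mice aged 10 to 12 weeks were grown into Mφs with M-CSF for 7 days. The Mφs were transfected with a locked nucleic acid antisense oligonucleotide (ASO) against 5′tRF-Glu(CTC), which is cut from the 5′ part of tRNA-Glu (αGlu), or with a control inhibitor (Ctr), both with lipofectamine. Both groups were then exposed to IL-4 and IL-13, each at 10 ng/ml, for 48 h to obtain the anti-inflammatory M2 state. Each group has 3 stranded mRNA libraries, and the comparison asks how targeting the fragment altered the transcriptome of M2 Mφs. The methods of the study describe replicates of primary cells as preparations from different animals and the transcriptome as independent experiments, whereas the labels number the libraries only. The fragment itself is not measured by mRNA libraries, so its inhibition could not be checked in them.

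The ASO and its target are shown because they define the treatment, and because a long match between the target and a transcript would place that transcript within reach of the same ASO. Both sequences were given in the supplementary files of the study, and capitals in the target mark the bases that pair with the ASO.
ASO against 5′tRF-Glu(CTC): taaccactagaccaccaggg
Targeted fragment: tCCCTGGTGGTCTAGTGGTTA
The ASO has 20 bases and pairs with bases 2 to 21 of the fragment. The longest run of the target found in a transcript of a gene was 10 bases for Mertk and 9 for Axl. It was 8 bases for Gas6 and Pros1, 7 for Mfge8, C1qa, C1qc, Trem2 and Timd4, and 6 for C1qb. Among 11760 tested genes with a transcript sequence, the median of the longest run was 8 bases and the highest 13, and 4.74% had a run of at least 10.

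The libraries held 17912831 to 30386653 exon reads, and values are given as CPM, which are counts scaled to a common library size with trimmed mean of M-values (TMM) factors, unless stated. The Mφ markers Adgre1, Csf1r, Cd68, Fcgr1, Itgam, Lyz2 and Cd14 were all present, with a sum of 11760 to 13310 CPM in Ctr and 12490 to 18700 in αGlu. Of 8 fibroblast and stromal markers, 0 exceeded a mean of 1 CPM, and the same count was found for 6 dendritic cell and for 6 lymphocyte markers. The 8 neutrophil markers summed to 106.4 to 159.3 CPM in Ctr and 186.1 to 608.9 in αGlu. Nearly all of this sum came from Csf3r, and Ly6g was at 0. The sums were 2.45 to 4.6 against 1.61 to 9.46 CPM for 6 mast cell and basophil markers, and 3.54 to 6.08 against 4.77 to 5.1 for 5 markers of resident peritoneal Mφs. The 7 IL-4 response genes summed to 2798 to 4526 CPM in Ctr and 3999 to 5050 in αGlu, with Chil3 the highest. By log2 fold change 2 of the 7 were higher and 5 lower in αGlu, with a median of -2.75. For 4 of them, all lower, the groups did not overlap, beside 15.9% of all tested genes that were lower without overlap. The part of these marker levels in the results below was not tested.

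One library stood apart from its group. Across the 11933 genes, log2 CPM of αGlu 2 and αGlu 3 correlated at a Pearson r of 0.992, whereas αGlu 1 correlated at 0.929 with both and at 0.966 to 0.982 with the 3 Ctr libraries. The members are therefore given with all 6 libraries and without αGlu 1. The latter was chosen as 1 of 6 fits that each leave out a library, and leaving out any of the other 5 called no member. αGlu 1 was singled out in these same data for its likeness to Ctr, so leaving it out favours a wider difference between the groups. The adjusted p values without αGlu 1 rest on αGlu 2 and αGlu 3 alone. They are given as descriptions and are no evidence of a change.

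Mfge8, Pros1 and Trem2 had the lowest fold changes of the 10 members and C1qa the highest, and αGlu 2 and αGlu 3 carried most of each difference. With all 6 libraries, none of the 10 members was called by edgeR's quasi-likelihood test for which a call needed an adjusted p (Benjamini-Hochberg) under 0.1 and more than a 2-fold change in either direction, or 1 on the log2 scale. This test called 0% of the 11933 genes, and 2 members, Pros1 and C1qa, had an unadjusted p under 0.05, as had 24.7% of all genes. Limma-voom also called 0 members, while DESeq2 and edgeR's likelihood-ratio test each called 2, again Pros1 and C1qa, against 8.13% and 7.53% of the genes they tested. Without αGlu 1, the quasi-likelihood test called 4 members, which were C1qa (higher) and Mfge8, Pros1 and Trem2 (lower), and it called 18.6% of 12340 genes, with 8.05% higher and 10.5% lower. By the adjusted p alone it took 7 of the 10 members, against 49.1% of those genes. The members without overlap between the groups were Pros1 and Mfge8, or 2 of 10, both lower in αGlu, beside 30.2% of all tested genes and 15.9% that were lower. Without αGlu 1 this held for 8 of 10, beside 65.8% of all genes, and Timd4 was among the 8 only by a gap within counting error. The median log2 fold change of the 10 members was -0.17, and that of all genes 0.02. In bulk libraries such as these, fewer cells that express a gene and less RNA per cell cannot be told apart.

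**Figure D1:**
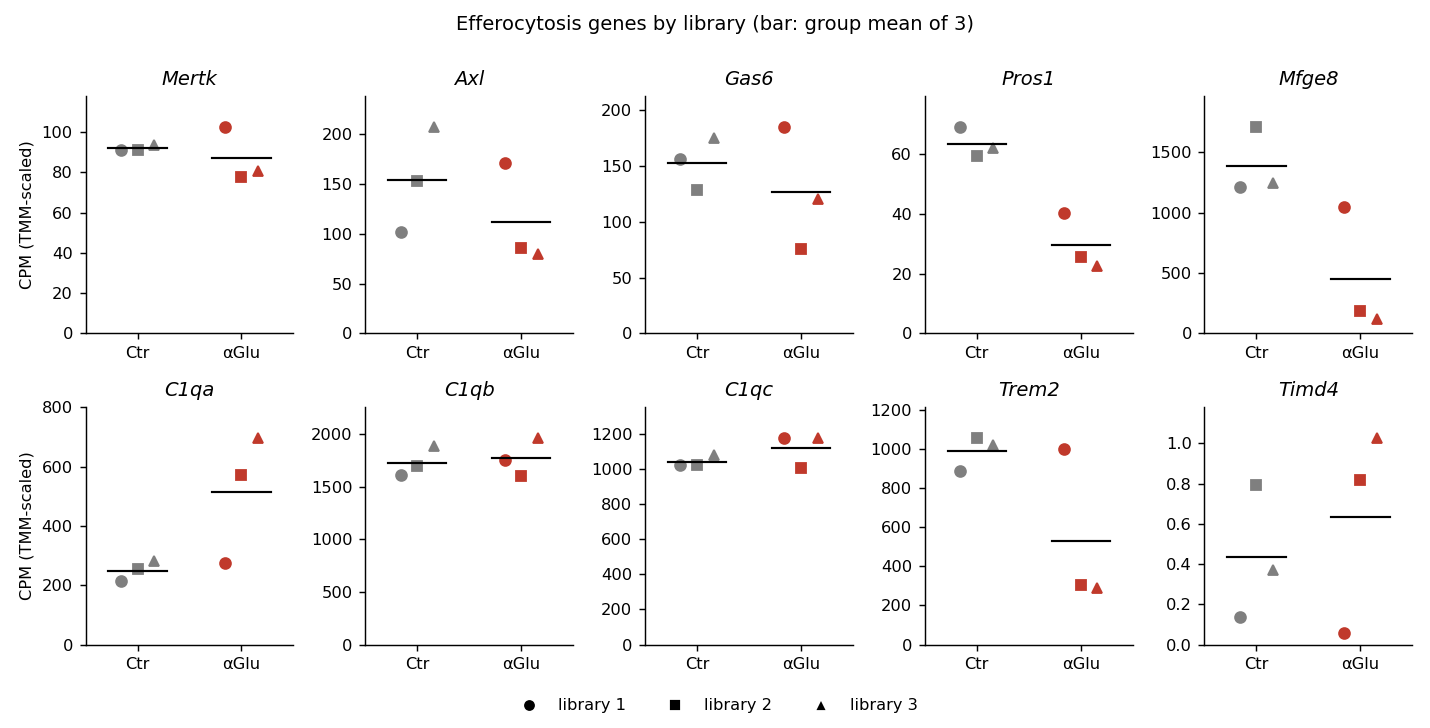
TMM-scaled CPM of the 10 genes in the 3 Ctr (grey) and 3 αGlu (red) libraries, with symbols for the library number, bars for the group means and a linear axis from 0 for each gene. Pros1 and Mfge8 are lower in each αGlu library than in any Ctr library, and αGlu 1 lies within or near the Ctr range for most genes.

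Mfge8 encodes a secreted glycoprotein that links phosphatidylserine to integrins on the phagocyte. Its level was 1215, 1713 and 1244 CPM in Ctr 1, 2 and 3, and 1045, 184 and 122 CPM in αGlu 1, 2 and 3. All 3 αGlu libraries were below the Ctr libraries, αGlu 1 only slightly, at 75.1% of the Ctr mean, and αGlu 2 and αGlu 3 at 13.3% and 8.75%. Over 6 libraries the log2 fold change was -1.63 ± 0.83 (SE, n = 3 per group) with an adjusted p of 0.264 in edgeR's quasi-likelihood test. Without αGlu 1 Mfge8 fell by 3.19 on the log2 scale (edgeR adjusted p = 0.000296), the largest change of the 10. The gene lies on the minus strand at chr7:79133768-79149060 of GRCm38.

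Pros1 encodes protein S, an anticoagulant cofactor that is also a bridging ligand of the receptors Mertk and Tyro3. It had 69.3, 59.3 and 62.0 CPM in Ctr, and 40.3, 25.6 and 22.4 CPM in αGlu. Each αGlu library, αGlu 1 included, was below each Ctr library, at 63.4%, 40.3% and 35.3% of the Ctr mean. Its log2 fold change was -1.11 ± 0.23 (SE), with an unadjusted p of 0.00274 and an adjusted p of 0.149 in the quasi-likelihood fit across all genes with edgeR. DESeq2 gave an adjusted p of 0.00128 and edgeR without αGlu 1 one of 0.000211, at a log2 fold change of -1.41. Pros1 lies on the plus strand at chr16:62854307-62929346 of GRCm38.

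Gas6, the other ligand of the Mertk and Axl family, had 156, 128 and 175 CPM in Ctr and 185, 75.8 and 120 CPM in αGlu. The highest of the 6 values was that of αGlu 1, and the other two αGlu libraries lay below all Ctr libraries. The log2 fold change was -0.27 ± 0.33 (SE, edgeR adjusted p = 0.613), and its 95% interval ran from -1.06 to 0.53. Without αGlu 1 it was -0.65 (adjusted p = 0.0612), below the limit on the fold. Gas6 overlaps Tmem255b on the opposite strand, a gene with 0 reads in all 6 libraries.

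Mertk and Axl are receptor tyrosine kinases of the TAM family, which reach the dying cell through Gas6 and, for Mertk, also protein S. Mertk had 91.1, 91.4 and 93.7 CPM in Ctr and 103, 77.7 and 80.5 CPM in αGlu. The Ctr libraries were within 3 CPM of each other, with αGlu 1 above and αGlu 2 and αGlu 3 below them. For Mertk the log2 fold change was -0.08 ± 0.12 (SE, edgeR adjusted p = 0.681), with a 95% interval from -0.38 to 0.22. Without αGlu 1 it was -0.22, at an adjusted p of 0.0473 but far from the limit on the fold. Mertk overlaps Gm14011 on the opposite strand, a gene with 0 reads in all libraries.

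Relative to its mean, Axl varied more within Ctr than any other member apart from Timd4. It had 102, 153 and 208 CPM in Ctr and 171, 85.4 and 79.8 CPM in αGlu. The Ctr libraries thus differed among themselves by more than Ctr 1 differed from the 2 lowest αGlu libraries, and the groups overlapped. For Axl the log2 fold change was -0.46 ± 0.39 (SE, edgeR adjusted p = 0.459), and it was -0.91 (adjusted p = 0.0439) without αGlu 1. Neither Mertk nor Axl was called in any fit.

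Trem2 encodes a receptor for lipids and apolipoproteins that signals through the adaptor Tyrobp (DAP12). It had 886, 1059 and 1024 CPM in Ctr and 1001, 305 and 291 CPM in αGlu. αGlu 1 lay within the Ctr range, at 101% of the Ctr mean, while αGlu 2 and αGlu 3 were at 30.8% and 29.4%. The log2 fold change over 6 libraries was -0.89 ± 0.51 (SE, edgeR adjusted p = 0.304). Without αGlu 1, Trem2 fell by 1.74 on the log2 scale (edgeR adjusted p = 0.000143). The gene lies on the plus strand at chr17:48346401-48354147 of GRCm38. Its adaptor Tyrobp had 877, 922 and 912 CPM in Ctr and 840, 468 and 490 CPM in αGlu. Unlike for Trem2, the groups did not overlap for Tyrobp, and its log2 fold change was -0.59 ± 0.25 (SE, edgeR adjusted p = 0.211), and -0.92 ± 0.09 (adjusted p = 0.000547) without αGlu 1.

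Timd4, the phosphatidylserine receptor TIM-4 of resident Mφs, was barely detected. It had 3, 19 and 8 reads in Ctr and 1, 26 and 28 reads in αGlu. These counts correspond to 0.136, 0.794 and 0.371 CPM in Ctr and to 0.0574, 0.818 and 1.03 CPM in αGlu. The exact 95% Poisson interval, which covers counting error only, reached from 0.478 to 1.24 CPM in Ctr 2 and from 0.535 to 1.2 CPM in αGlu 2. The intervals of Ctr 1 (0.0281 to 0.398 CPM) and αGlu 1 (0.0015 to 0.32 CPM) lay below those of αGlu 2 and αGlu 3 (0.682 to 1.48 CPM), so libraries differed by more than counting error, also within αGlu. Its log2 fold change was 0.59 ± 0.92 (SE, edgeR adjusted p = 0.697). Without αGlu 1 the groups did not overlap, but αGlu 2 (0.818 CPM) and Ctr 2 (0.794 CPM) differed by less than counting error. The log2 fold change was then 1.05 ± 0.61 (edgeR adjusted p = 0.214).

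Of the 3 chains of C1q, the recognition subunit of the first complement component, C1qa had the values farthest from Ctr. C1qa had 213, 253 and 283 CPM in Ctr and 276, 571 and 697 CPM in αGlu. αGlu 1 lay within the Ctr range and αGlu 2 and αGlu 3 were at 229% and 279% of the Ctr mean. For C1qa the log2 fold change was 1.04 ± 0.35 (SE), with an unadjusted p of 0.0232 and an adjusted p of 0.168 in edgeR's quasi-likelihood test. DESeq2 gave an adjusted p of 0.0398, and without αGlu 1 C1qa rose by 1.34 on the log2 scale (edgeR adjusted p = 0.000956).

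C1qb and C1qc, the partner chains, had values near those of Ctr. C1qb had 1610, 1693 and 1887 CPM in Ctr and 1758, 1601 and 1965 CPM in αGlu. C1qc had 1022, 1024 and 1080 CPM in Ctr and 1178, 1005 and 1180 CPM in αGlu. The groups overlapped for both chains. The log2 fold change was 0.04 ± 0.16 (SE, edgeR adjusted p = 0.892) for C1qb and 0.10 ± 0.13 (adjusted p = 0.625) for C1qc, and the 95% intervals ran from -0.35 to 0.42 and from -0.22 to 0.43. With all 6 libraries the interval of C1qa, from 0.20 to 1.89, overlapped both of these. Without αGlu 1 the intervals of C1qb and C1qc were -0.27 to 0.35 and -0.19 to 0.32, and that of C1qa was 0.98 to 1.70.

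To compare the chains with each other, the deposited TPM were used, in which reads are divided by gene length before scaling. C1qa made up 9.23%, 10.5% and 10.6% of the summed C1q TPM in Ctr and 10.7%, 21.6% and 21.7% in αGlu. The ratio of C1qb to C1qa in TPM was 7.24, 6.39 and 6.38 in Ctr and 6.09, 2.68 and 2.69 in αGlu, whereas the ratio of C1qb to C1qc was 2.79, 2.94 and 3.10 in Ctr and 2.65, 2.83 and 2.96 in αGlu. The balance between C1qb and C1qc was thus alike in all 6 libraries, and that of C1qa to both differed in αGlu 2 and αGlu 3. These ratios were chosen after the values were seen, and exact two-sided permutation tests on their log2 values gave p = 0.1 for C1qb to C1qa, p = 0.3 for C1qc to C1qa and p = 0.5 for C1qb to C1qc, where 0.1 is the smallest p that 3 against 3 libraries allow. The summed CPM of the 3 chains was 3022 ± 208 (SD, n = 3) in Ctr and 3410 ± 374 in αGlu, a difference of 0.17 on the log2 scale. In TPM the sum was 7142 ± 464 in Ctr and 8671 ± 1296 in αGlu, a difference of 0.27. By TPM the groups did not overlap, with αGlu 1 (7727) just above Ctr 3 (7673).

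**Figure D2:**
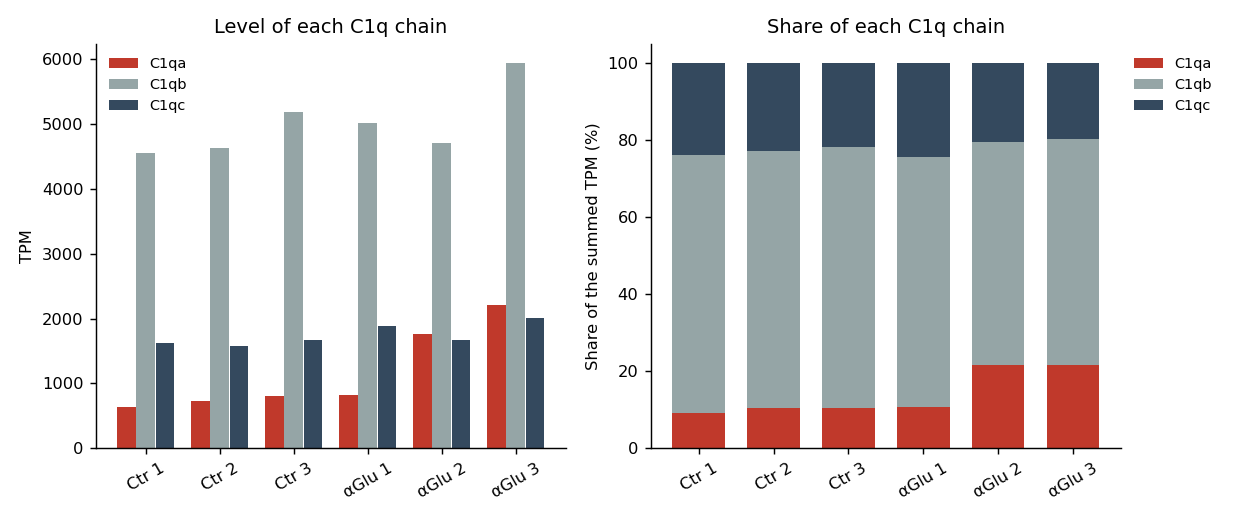
TPM of the 3 C1q chains in each library (left, bars from 0) and the share of each chain in their summed TPM (right, in %). The C1qa share lies between 9.23% and 10.7% in the Ctr libraries and αGlu 1, and at 21.6% and 21.7% in αGlu 2 and αGlu 3.

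The 3 genes lie next to each other on the minus strand of chromosome 4 of GRCm38. C1qb spans chr4:136880129-136886187, C1qc chr4:136889804-136893065 and C1qa chr4:136895917-136898803. The gaps are 3616 and 2851 bases, and 0 other annotated genes lie between them. The member with the higher value in αGlu is therefore the one at the 5′ end of the cluster in the direction of transcription.

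**Figure D3:**
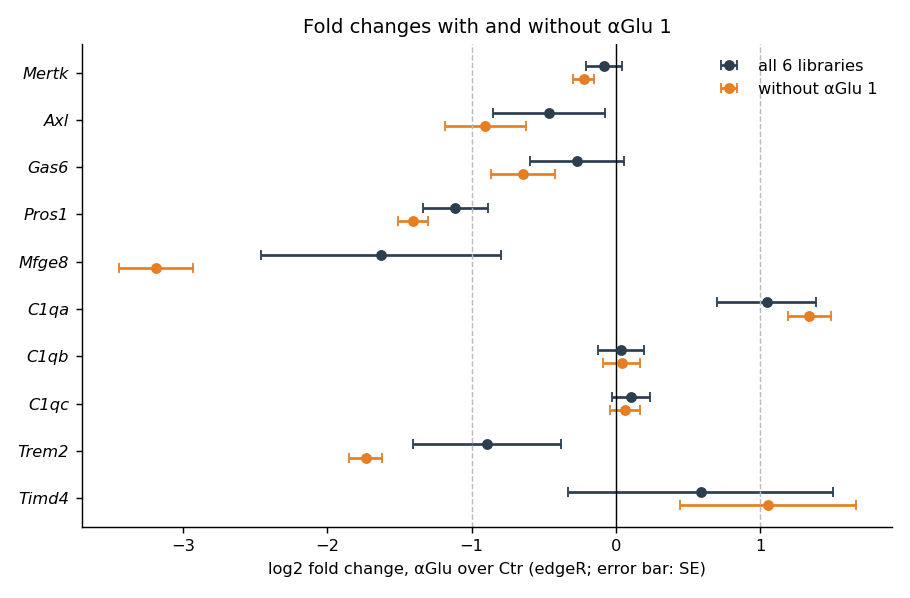
Log2 fold change of αGlu over Ctr from edgeR for the 10 genes, with all 6 libraries (dark) and without αGlu 1 (orange), error bars showing the SE and dashed lines the limits of -1 and 1. Without αGlu 1, Mfge8, Trem2 and Pros1 lie below -1 and C1qa and Timd4 above 1, and the error bar of Timd4 reaches below 1.

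By abundance per length, the order in Ctr was C1qb (4792 ± 344 TPM, SD), C1qc (1627 ± 46.8), Mfge8 (892 ± 169), C1qa (723 ± 91.7), Trem2 (603 ± 45.4), Gas6 (181 ± 28.3), Axl (92.2 ± 30.6), Mertk (64.0 ± 1.07), Pros1 (46.9 ± 4.68) and Timd4 (0.598 ± 0.454). The ranges of Mfge8 and C1qa, of C1qa and Trem2, and of Axl and Mertk overlapped, and those of the other neighbours did not. In αGlu the mean of C1qa was 1595 ± 704 TPM and came close to that of C1qc (1856 ± 173), with overlapping ranges. Trem2 (340 ± 250) and Mfge8 (300 ± 338) had SDs near or above their means, since αGlu 1 was several-fold higher than the other two libraries. From Trem2 through Gas6 (159 ± 65.3) and Axl (70.6 ± 30.2) to Mertk (64.0 ± 8.5), the ranges of neighbours overlapped in αGlu.

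Mfge8, Trem2 and C1qa followed each other across the 6 libraries, C1qa in the opposite direction. The Pearson r of log2 CPM was 0.987 between Mfge8 and Trem2 and -0.97 between Mfge8 and C1qa. Timd4 and Axl also differed between αGlu 1 and the other αGlu libraries, but their r with Mfge8 was only -0.57 and 0.80. These values describe 6 libraries of which αGlu 2 and αGlu 3 stand apart for many genes. Of 8401 well expressed genes (mean log2 CPM 3 or more), 772 followed Trem2 with an r above 0.95, 747 followed Mfge8 and 586 followed C1qa. The genes most like Trem2 were Plin2, a lipid droplet protein (r = 0.9998), Slc15a4 and Rab7b (both 0.9997). Those most like Mfge8 were Egr2, Cd22 and Camk2b (0.9985 each), and those most like C1qa were Wtap (0.9985), Vmp1 (0.9971) and Ccl7 (0.9969). Mertk was followed with an r above 0.95 by 107 genes and Axl by 54. For Mertk the closest were Map3k1 (0.9981), Wrn (0.9976) and Zfp638 (0.9895), and for Axl they were Gtf2a1 (0.9962), Clk4 (0.9947) and Aida (0.9907).

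The promoters of the 3 members called lower without αGlu 1 are shown because these genes carried the changes toward lower values. They are RefSeq sequences of GRCm38.p6, 250 bases before to 50 after the annotated start, read in the direction of transcription. Capitals mark matches, on either strand, to the nuclear receptor half-site AGGTCA, the Maf half-site TGCTGA or the spaced STAT6-type palindrome TTCNNNNGAA.
Mfge8 promoter, chr7:79149011-79149310, minus strand: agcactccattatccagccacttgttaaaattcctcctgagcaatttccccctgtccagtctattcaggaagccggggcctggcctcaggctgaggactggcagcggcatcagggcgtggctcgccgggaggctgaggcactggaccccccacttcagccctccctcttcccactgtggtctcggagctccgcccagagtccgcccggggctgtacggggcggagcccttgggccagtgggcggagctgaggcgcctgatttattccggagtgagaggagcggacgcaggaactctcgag
Trem2 promoter, chr17:48346151-48346450, plus strand: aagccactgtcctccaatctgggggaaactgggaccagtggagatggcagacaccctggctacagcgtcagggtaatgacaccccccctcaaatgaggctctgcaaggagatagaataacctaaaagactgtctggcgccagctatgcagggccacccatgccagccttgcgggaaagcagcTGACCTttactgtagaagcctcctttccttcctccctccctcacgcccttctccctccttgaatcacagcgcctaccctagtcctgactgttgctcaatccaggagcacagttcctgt
Pros1 promoter, chr16:62854057-62854356, plus strand: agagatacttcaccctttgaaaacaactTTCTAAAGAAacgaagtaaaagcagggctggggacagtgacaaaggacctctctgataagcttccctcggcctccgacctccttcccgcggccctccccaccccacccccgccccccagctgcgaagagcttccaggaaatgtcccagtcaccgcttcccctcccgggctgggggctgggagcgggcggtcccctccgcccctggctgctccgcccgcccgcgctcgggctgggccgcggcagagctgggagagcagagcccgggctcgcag
Mfge8 holds no match, Trem2 holds AGGTCA on the strand opposite to the gene at position -68 from the start, and Pros1 holds TTCNNNNGAA at -222. Across 9 members with a promoter in the table, which lacks C1qa, AGGTCA occurred in 3, TGCTGA in 2 and TTCNNNNGAA in 1. Over all 32851 promoters of the same length the shares were 16.3%, 19.5% and 6.95%. C1qb holds TGCTGA and C1qc holds AGGTCA, and Timd4 holds both. These matches describe letters in a window and carry no test, and no pair of the motifs overlapped in the sequences shown.

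Of 84 other genes of efferocytosis, 70 were tested. With all 6 libraries, edgeR's quasi-likelihood test called 0 of them, and 19 had an unadjusted p under 0.05, beside 24.7% of all genes. DESeq2 called 13 of 75 and the likelihood-ratio test 9 of 70, beside 8.13% and 7.53% of all genes in those tests. The groups did not overlap for 29 of the 70, with 11 higher and 18 lower in αGlu, beside 30.2% of all genes. Without αGlu 1, 28 of 72 were called, 8 higher and 20 lower, beside 18.6% of all genes, or 8.05% higher and 10.5% lower, and the counts per list given next are read against these shares. Of the 28, C1s1 and Trem1 were tested in that fit but not with all 6 libraries, and both passed its filter only through their reads in αGlu. The lists were chosen with earlier results of these data known, and genes are named from the 2 with the smallest p of each.

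Among 13 tested receptors and tethers, 2 were called higher and 8 lower without αGlu 1, beside 8.05% and 10.5% of all genes. The scavenger receptor Stab1 (stabilin-1), which binds phosphatidylserine, had 148, 90.1 and 95.95 CPM in Ctr and 206, 320 and 359 CPM in αGlu. All αGlu libraries, αGlu 1 included, were above Ctr, and the log2 fold change was 1.40 ± 0.29 (SE, edgeR adjusted p = 0.149), and 1.603 (adjusted p = 0.00217) without αGlu 1. Cd300lf, a receptor of the CD300 family for phospholipids, had 3.09, 7.77 and 15.03 CPM in Ctr and 16.7, 135 and 99.9 CPM in αGlu. Its log2 fold change was 3.28 ± 0.91 (adjusted p = 0.157), and 3.76 (adjusted p = 0.00233) without αGlu 1. Both genes had an adjusted p under 0.1 in DESeq2, but relatives of both were among the 8 called lower without αGlu 1.

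Of 6 tested ligands and opsonins, 1 was called higher and 4 lower without αGlu 1, beside 8.05% and 10.5% of all genes. Thrombospondin-1 (Thbs1), which bridges dying cells to CD36 and integrins, had 12.4, 11.2 and 10.02 CPM in Ctr and 10.4, 479 and 400.5 CPM in αGlu. αGlu 1 was within the Ctr range and the other two libraries far above it, with a log2 fold change of 4.73 ± 1.28 (SE, edgeR adjusted p = 0.157), and of 5.29 (adjusted p = 7.43e-06) without αGlu 1. Calreticulin (Calr) had a log2 fold change of -0.71 ± 0.25 (edgeR adjusted p = 0.175), and one of -1.02 (adjusted p = 0.000486) without αGlu 1, and did not overlap between the groups.

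Of 4 tested partners and inhibitors of the C1 complex, 2 were called higher (C1ra and C1s1) and 0 lower without αGlu 1, beside 8.05% and 10.5% of all genes. With all 6 libraries 3 were tested, 1 higher and 2 lower in αGlu. All 3 were without overlap, beside 30.2% of all genes. C1s1 had 4, 2 and 4 reads in Ctr and 0, 243 and 142 in αGlu, so it passed the filter only through the group where it is high, and its call carries no weight. C1ra, a serine protease of the C1 complex, had 6.86, 9.7 and 13.5 CPM in Ctr and 15.6, 71.6 and 74.7 CPM in αGlu. Each αGlu library exceeded each Ctr library, and the log2 fold change was 2.43 ± 0.62 (SE, edgeR adjusted p = 0.156), and 2.87 (adjusted p = 0.000312) without αGlu 1. C1qbp, named for binding the globular heads of C1q, had a log2 fold change of -0.31 ± 0.09 (adjusted p = 0.159).

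In the remaining lists, the engulfment factor Elmo2 had 127, 123 and 123 CPM in Ctr and 81.9, 32.0 and 33.3 CPM in αGlu, so that αGlu 1 also lay below Ctr. Its log2 fold change was -1.34 ± 0.38 (SE, edgeR adjusted p = 0.159), and -1.93 (adjusted p = 2.71e-05) without αGlu 1. That of Vav1, a signalling adaptor and exchange factor, was 0.75 ± 0.23 (adjusted p = 0.162). Dnase2a, the lysosomal nuclease that digests the DNA of ingested cells, had -0.72 ± 0.30 (adjusted p = 0.206), and the autophagy factor Atg5 had 0.35 ± 0.15 (adjusted p = 0.212). Among nuclear receptors and Maf factors, Ppard had 0.56 ± 0.15 (adjusted p = 0.157) and was higher in each αGlu library than in Ctr. S1pr1, a receptor for the find-me lipid sphingosine 1-phosphate, had 2.11 ± 0.62 (adjusted p = 0.159), and Gpr132 had 1.43 ± 0.56 (adjusted p = 0.191). Treml4 (-1.60 ± 0.53, adjusted p = 0.168), the protease inhibitor Timp3 (-1.02 ± 0.30, adjusted p = 0.16) and Rhbdf2, a partner of the sheddase ADAM17 (0.24 ± 0.11, adjusted p = 0.221) complete the named genes. Without αGlu 1, 3 of 12 genes of phagosome maturation and 2 of 11 of the engulfment machinery were called, all 5 lower. Of 6 find-me and do-not-eat-me receptors, 2 were called, both higher. Of 8 genes of the TREM list, 1 was called higher, which was Trem1, and 1 lower. Of 8 nuclear receptors and Maf factors 1 was called lower, and of 4 sheddases and regulators 1 was called lower. In that fit 8.05% of all genes were called higher, 10.5% lower, and 18.6% in either direction.

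**Figure D4:**
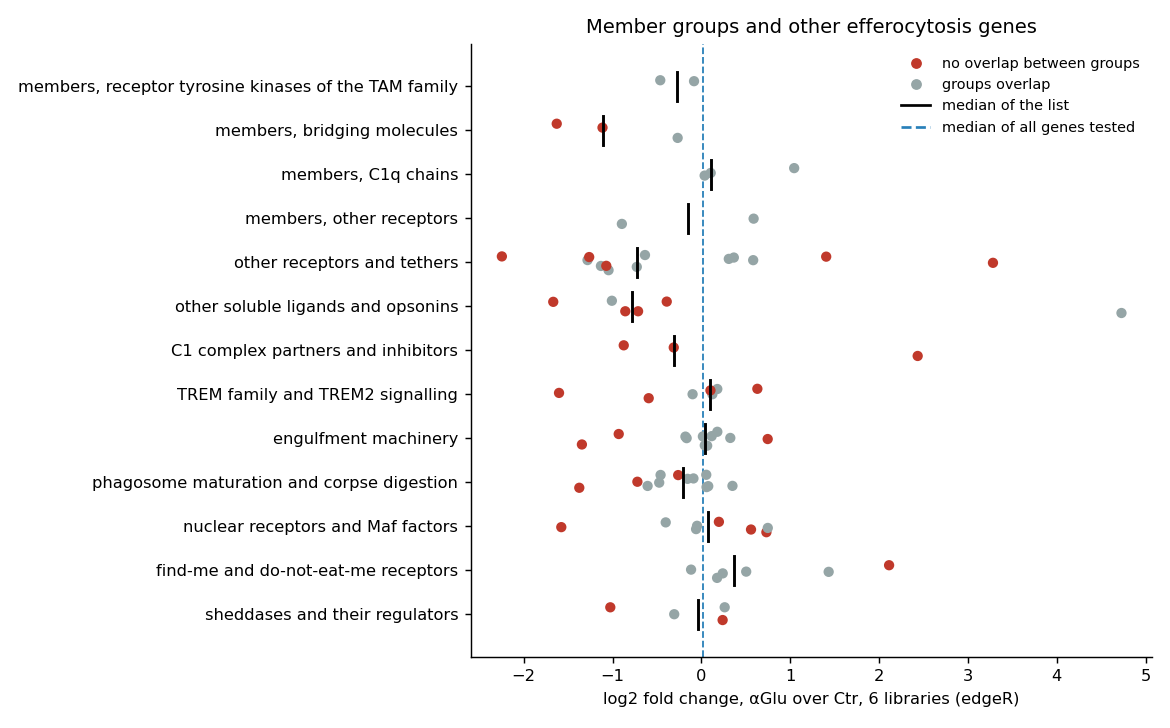
Log2 fold change of αGlu over Ctr with all 6 libraries for each tested member and each of the other tested efferocytosis genes, 1 line per list. Red points do not overlap between the groups, black bars are list medians and the dashed line is the median of all genes at 0.02; list medians lie between -1.11 for the bridging members and 0.37 for find-me and do-not-eat-me receptors.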

How the data were processed

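Messenger RNA of 3 Ctr and 3 αGlu libraries was analysed from 1 table, grouped by the sample titles. The authors processed the reads with a QIAGEN analysis portal. The build was GRCm38 per the submitters' processing notes, and the aligner and annotation are not given in the sources used here. The deposited counts are whole exon reads per gene, not normalized. The deposited RPKM and a CPM signal, scaled by the authors to an effective library size, were not used for results. The deposited TPM served to compare genes. All value columns matched a library (0 did not), and 1 row that names no gene was dropped.

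Counts were filtered with filterByExpr (minimum count 10, minimum total 15), scaled with TMM and fitted with edgeR 4.0.16 in R 4.3.3 (quasi-likelihood, group as the only term, two-sided, Benjamini-Hochberg over all genes). Log2 CPM had a prior count of 2. SEs were derived from the F statistic. Alternatives were DESeq2 1.42.0, limma-voom (limma 3.58.1), the likelihood-ratio test, robust estimation, other factors, filters and thresholds, the replicate number as a block, and each library left out. The scripts were tested on simulated data. Total counts of 17912831 to 30386653 per library set the precision of low genes. Libraries with the same number deviated together with an r of 0.08, 0.06 and 0.15, and those with different numbers with -0.11 to 0.05. Each r of equal numbers thus exceeded each r of different numbers. For the fragment level of Mφs transfected in this way, the study used a paired t test. This does not settle whether equal numbers mark pairs here, and the labels do not state it. The libraries were therefore fitted as unpaired, with the number as a block among the alternatives.

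The members and lists were chosen with earlier results of these data known. The rule for naming genes took all members, the 2 genes with the smallest p of each list, and the 3 genes most like each member by Pearson r, given for 5 members. The values of 1 gene that this rule took are not reported here. Coordinates, motif positions and runs came from GENCODE and RefSeq annotations of GRCm38. Whether counting used strand is not stated.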

Additional observations from a re-analysis of the deposited data

How the results depend on the processing

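The count of members called was 0 with all 6 libraries, 2 with DESeq2, 2 with edgeR's likelihood-ratio test, and 0 to 4 when 1 library was left out, with the 4 reached without αGlu 1. It was 0 with relative log expression or upper-quartile factors, library size alone, either other filter, limma-voom, robust estimation and the other thresholds. For the other efferocytosis genes the count was 0, and it was 13 with DESeq2, 9 with the likelihood-ratio test and 0 to 28 with 1 library left out. Members without overlap numbered 2, and 2 to 8 with 1 library left out. The replicate number as a block gave 0 called members and 0 other genes, and called 17 of 11933 genes.

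For single members, 168 of 179 alternative values kept direction and side of the threshold, 8 crossed into a call and 3 reversed: Gas6 without αGlu 2, and C1qb without Ctr 1 and without αGlu 3. With 1 library left out, the log2 fold change of Gas6 ran from -0.65 to 0.00187 and that of C1qb from -0.0402 to 0.11, with -0.00371 without Ctr 1. Of 323 values for the other named genes, 296 kept both and 27 crossed into a call. By TPM in place of CPM, C1qa did not overlap either, since αGlu 1 (823 TPM) lay above Ctr 3 (812 TPM). The log2 fold change of Timd4, which had at most 28 reads in a library, ran from 0.12 to 1.35 over the 17 alternatives that tested it.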

Other observations

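The genes given here lie outside the rule for naming genes and were chosen after their values were seen, so they stand for no group. The nuclear receptor Pparg had 201, 217 and 201 CPM in Ctr and 183, 13 and 12.4 CPM in αGlu. Lipa, the lysosomal acid lipase, had 2284, 2427 and 2540.5 CPM in Ctr and 2228, 281 and 289 CPM in αGlu. Anxa1 (annexin A1), which binds phosphatidylserine, had 2999, 4163 and 3455 CPM in Ctr and 2779, 294 and 271 CPM in αGlu. For these 3 genes αGlu 1 was just below the Ctr range. Without αGlu 1 the log2 fold change was -4.03 for Pparg, -3.09 for Lipa and -3.65 for Anxa1, and each was called by edgeR's quasi-likelihood test. With all 6 libraries the adjusted p was 0.373, 0.336 and 0.306. Other genes of the same lists had smaller or opposite values without αGlu 1, as Nr1h3 (-0.51) and Ppard (0.70).

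Cd36, a scavenger receptor that binds thrombospondin-1 and oxidised lipids, had 2897, 2460.4 and 2334 CPM in Ctr and 2413, 453 and 299.9 CPM in αGlu, and Apoe had 6006, 6798 and 5204 CPM in Ctr and 5281, 2017 and 1662 CPM in αGlu. For both, αGlu 1 lay within the Ctr range. Stab2, Cd300lb and Cd300a, relatives of Stab1 and Cd300lf, had log2 fold changes of -2.25, -1.13 and -1.04 with all 6 libraries. Without αGlu 1 these were -4.11, -2.11 and -2.20.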
